A study of Mus musculus with 77 samples.

Results

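The 31 genes described here encode proteins of the neuronal synapse, the neurofilaments and the machinery that defines glutamate and GABA neurons. They were taken by name from a list of synaptic and neuronal genes, and all 31 were present among the 52636 genes of each of 5 count tables. RNA of mouse cerebral white matter was counted in 77 libraries, each labelled with a cell type and with stroke or control. EC were represented by 7 stroke and 5 control libraries, pericytes by 8 stroke and 7 control, and OPC and astrocytes by 6 stroke and 6 control each. Microglia comprised 9 P4 stroke, 9 P2 stroke and 8 P2 control libraries. Age, strain, time after stroke, the stroke model beyond the words focal ischemia in the series title, the way cells were isolated, and the meanings of EC, OPC, P2 and P4 are not stated in the labels. The labels do not tie a library to an animal, and the p-values therefore reflect the spread among libraries, which may be technical.

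A neuron releases transmitter when synaptic vesicles fuse with its membrane. SNAP-25, syntaxin 1A and VAMP2 form the fusion complex, synaptotagmins sense calcium, complexins clamp and promote fusion, and synapsins, synaptophysin, SV2 proteins and RAB3A sit on the vesicle. On the receiving side, NMDA and AMPA receptors respond to glutamate and GABA-A receptors to GABA, while CaMKII and neurogranin act in calcium signalling behind them. Neurofilaments are the intermediate filaments of axons, and white matter is made largely of myelinated axons whose cell bodies lie elsewhere. Pericytes, astrocytes and microglia are not neurons, and oligodendrocyte precursors are known to receive synapses from axons and to carry AMPA receptors. In such bulk libraries, fewer cells of a type and less RNA per cell cannot be told apart.

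The upstream sequences of members with an RE1 element are shown because RE1 is the site of REST, a repressor known for keeping neuronal genes low in non-neuronal cells. RefSeq promoters (GRCm38.p6) were matched for 20 of the 31 members by symbol, and the 250 bases before the start were searched on both strands for the RE1 consensus, 21 letters long, with up to 3 mismatches. It was found in 2 of these 20 members and in 0.0925% of 27025 genes with a promoter entry. The capitals mark the match, which has 1 mismatch in Syn1 and 2 in Gria2. In Gria2 it lies on the opposite strand, so the capitals are the reverse complement of the motif.
Syn1, chrX:20920919-20921168, minus strand: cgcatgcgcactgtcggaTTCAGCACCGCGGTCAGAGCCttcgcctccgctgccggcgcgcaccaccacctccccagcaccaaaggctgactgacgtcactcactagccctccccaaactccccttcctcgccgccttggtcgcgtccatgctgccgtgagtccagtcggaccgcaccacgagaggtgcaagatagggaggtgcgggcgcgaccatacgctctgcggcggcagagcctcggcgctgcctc
Gria2, chr3:80802836-80803085, minus strand: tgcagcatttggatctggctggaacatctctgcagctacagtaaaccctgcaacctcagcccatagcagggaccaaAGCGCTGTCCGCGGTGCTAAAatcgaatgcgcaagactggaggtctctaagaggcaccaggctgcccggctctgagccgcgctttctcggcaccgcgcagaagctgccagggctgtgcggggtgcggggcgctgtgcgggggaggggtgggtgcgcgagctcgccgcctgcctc
The Syn1 match covers bases 232 to 212 before the start and the Gria2 match bases 174 to 154. The cAMP response element TGACGTCA, searched on both strands, was also present in the Syn1 window and in 1.77% of all genes. TATAAA, on either strand, was present in 3 members (Gabrb2, Gad1 and Sv2b) and in 14.3% of all genes. A match is a run of letters in this window, and no binding was measured.

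Library totals were 43367636 to 142944063 counts outside microglia and 5530125 to 11770194 in microglia. Levels are CPM, read counts relative to the depth of the library, with depths scaled by TMM factors (a trimmed mean that balances composition) within each table. Markers for each label were present in its table, and genes of other cells were present too. The 8 endothelial markers summed to 3426 ± 609 CPM in EC stroke and 2459 ± 548 CPM in EC control libraries, and the 7 pericyte markers to 11980 ± 3187 CPM in pericyte stroke and 11554 ± 4266 CPM in pericyte control libraries (SD). The 31 neuronal genes together summed to more than the endothelial markers in EC libraries, at 11819 ± 1088 CPM in stroke and 16216 ± 2461 CPM in control. In OPC libraries the 8 mature oligodendrocyte markers, at 65097 ± 7401 CPM in stroke and 105829 ± 5691 CPM in control, exceeded the 8 OPC markers, at 12327 ± 1051 CPM in stroke and 13086 ± 915 CPM in control. The 8 astrocyte markers summed to 41091 ± 10899 CPM in astrocyte stroke and 34807 ± 8381 CPM in astrocyte control libraries. The 8 microglia markers averaged 16016 CPM in P4 stroke, 16318 CPM in P2 stroke and 14067 CPM in P2 control libraries of microglia.

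Across control libraries, the neuronal genes were highest where the label was EC and lowest where it was OPC. Of the 31 members, 30 had their highest control mean in EC and 27 their lowest in OPC. The order EC, astrocyte, pericyte, OPC held for 17 members, and the order EC, pericyte, astrocyte, OPC for 9. The tables were scaled separately, so these orders compare levels set across tables and carry no test. The EC control mean was a median of 9.85 times the OPC control mean (range over members 1.65 to 22.5), 3.56 times the pericyte mean (0.658 to 7.05) and 3.17 times the astrocyte mean (1.77 to 4.80). Gad2, which makes GABA, had the widest gap: its controls averaged 250.1 ± 20.6 CPM in EC (n = 5), 71.8 ± 6.18 in astrocytes (n = 6), 41.0 ± 9.93 in pericytes (n = 7) and 11.1 ± 5.45 in OPC (n = 6), and no neighbouring ranges overlapped. Another 5 members followed neither order: Sv2a, Gabrb2, Syn2, Gria2 and Cplx2. Cplx2, a complexin, was the one member not highest in EC, with 319 ± 210 CPM in pericytes and 209.9 ± 28.8 CPM in EC controls, whose ranges overlapped. For 26 members astrocyte and pericyte controls were neighbours in the order and their ranges overlapped.

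**Figure D1:**
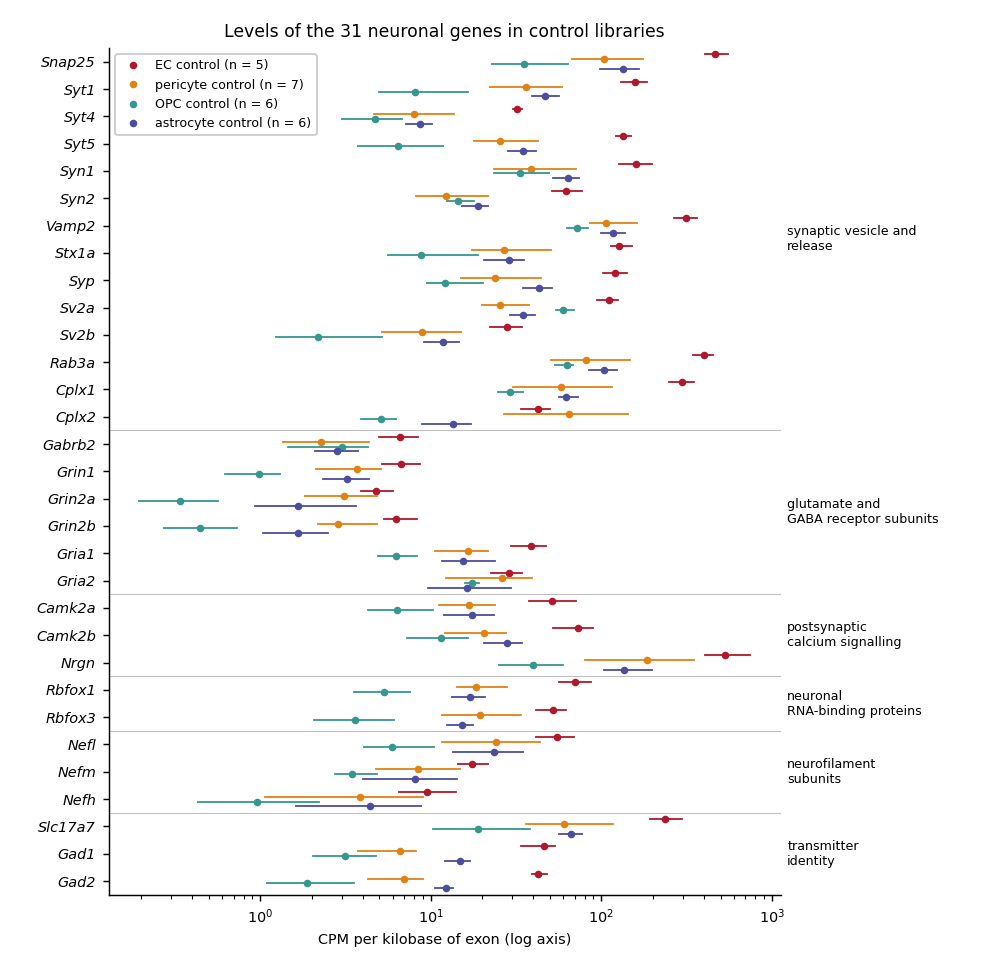
Mean level of each member in control libraries, in CPM per kilobase of exon on a log axis; points are group means and lines run from the lowest to the highest library. EC controls lie to the right for 30 of 31 members, and OPC controls lie to the left for 27.

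Per kilobase of exon, the leading members in EC controls were Nrgn, the neurogranin gene, at 534 CPM per kilobase, Snap25 at 467, Rab3a at 401 and Vamp2 at 314. In astrocyte and pericyte controls Nrgn, Snap25, Vamp2 and Rab3a were again the first 4, while Grin2a, Grin2b, Grin1 and Gabrb2 stood at 0.337 to 6.72 in all 4 tables. OPC controls had another make-up. Sv2a, a vesicle glycoprotein, reached 59.3 CPM per kilobase there, above Snap25 at 35.0, and the ratio of Sv2a to Snap25 within a library was 1.90 ± 0.653 in OPC controls, against 0.238 ± 0.0211 in EC, 0.261 ± 0.0548 in pericyte and 0.271 ± 0.0814 in astrocyte controls. Gria2, the AMPA receptor subunit that limits calcium entry, also stood higher relative to Snap25 in OPC controls, at 0.548 ± 0.172 per length, than in EC controls at 0.0613 ± 0.00479. The lowest OPC control, at 0.303, was above the highest EC control at 0.0657, while pericyte controls reached 0.505. The marker of glutamate neurons Slc17a7 exceeded that of GABA neurons Gad1 in all 4 tables: the ratio of Gad1 to Slc17a7 per length averaged 0.201 in EC, 0.123 in pericyte, 0.183 in OPC and 0.226 in astrocyte controls.

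In stroke libraries of EC, pericytes, OPC and astrocytes, most synaptic and neuronal members lay below their control level, and 1 member rose in 1 cell type. With edgeR's quasi-likelihood test and Benjamini-Hochberg adjusted p under 0.05 over all genes of a table, 14 members were lower in EC stroke libraries, where 2.67% of all 20995 genes were. In pericytes 27 members were lower, against 12.8% of 21694 genes, and in OPC 15 were lower, against 8.77% of 18167 genes. In astrocytes 24 were lower, against 4.68% of 18796 genes. In the other direction 1 member was higher, Syt4 in OPC, where 11.7% of all genes were. No member was higher in EC, pericytes or astrocytes, against 3.57%, 15.9% and 5.63% of all genes. The median log2 fold change over the 31 members was -0.41 in EC, -1.11 in pericytes, -0.59 in OPC and -0.996 in astrocytes, against medians over all genes of 0.03, -0.08, -0.01 and -0.04. Single members lay between -0.65 and -0.19 in EC and between -1.44 and -0.71 in pericytes. In OPC they lay between -1.32 and 1.04, and in astrocytes between -1.37 and -0.45. All 31 passed the filter on low counts in these 4 tables.

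By role, of the 14 vesicle and release genes, 11 fell in EC, 13 in pericytes, 9 in OPC and 13 in astrocytes. Of the 6 receptor subunit genes, none passed in EC or OPC, 3 fell in astrocytes and 6 in pericytes. Both RNA-binding splicing regulators, Rbfox1 and Rbfox3 (the NeuN antigen), fell in each of the 4 tables. The transmitter genes Slc17a7, Gad1 and Gad2 all fell in pericytes, OPC and astrocytes, and Slc17a7 alone passed in EC. None of the 3 neurofilament genes passed in any table. In all, 11 members were lower in all 4 tables: Snap25, Syt1, Syt5, Vamp2, Syp, Sv2a, Rab3a, Cplx1, Rbfox1, Rbfox3 and Slc17a7. This count rests on the EC calls, of which 0 were left without control 7 and 1, Snap25, without control 9. The share of all genes lower in all 4 tables was not worked out. In OPC the call of Syt5 ended in 7 and that of Syp in 6 of the 12 fits with 1 library left out. Only Cplx2 and the 3 neurofilament genes were lower in none. Of the members printed above for their RE1 match, both fell in pericytes, Syn1 with a log2 fold change of -1.09 ± 0.28 and Gria2 with -1.27 ± 0.36 (SE). In OPC Syn1 passed the test at -0.55 ± 0.16, and Gria2 did not at -0.16 ± 0.09. In astrocytes Syn1 fell and Gria2 did not pass, and in EC neither passed.

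**Figure D2:**
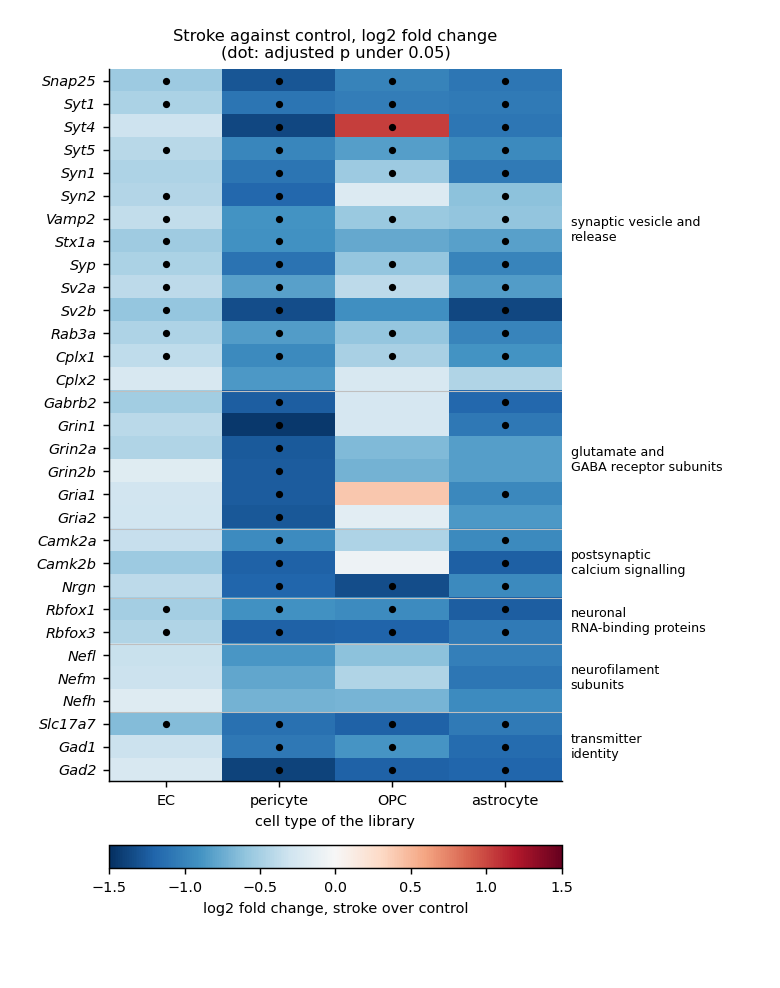
Log2 fold change of each member, stroke over control, in 4 cell types; blue is lower and red higher in stroke, and a dot marks an edgeR adjusted p under 0.05. The column of pericytes holds 27 dots and that of astrocytes 24, the 3 neurofilament rows hold none, and Syt4 in OPC is the one red cell with a dot.

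Snap25 (chr2:136713453-136782428 in GRCm38, plus strand, protein coding), the membrane SNARE of vesicle fusion, shows the size of the change in each table. EC stroke libraries had 1825, 2255 and 2466 CPM at their lowest, median and highest, against 2744, 2842, 2952, 3568 and 3743 CPM in the 5 EC controls. Every EC stroke library lay below every EC control. Pericyte stroke libraries had 169, 245 and 626 CPM, against 457, 596 and 1186 CPM in pericyte controls. Stroke 3 alone reached into the control range, and the other 7 pericyte stroke libraries, at up to 342 CPM, lay below all controls. OPC libraries overlapped, with 59.1, 127 and 175 CPM in stroke and 156, 215 and 433 CPM in control. Astrocyte libraries did not, with 173, 460 and 649 CPM in stroke and 669, 921 and 1128 CPM in control. The log2 fold changes were -0.55 ± 0.10 in EC, -1.28 ± 0.29 in pericytes, -0.998 ± 0.278 in OPC and -1.08 ± 0.25 in astrocytes (SE), with edgeR adjusted p of 0.0143, 0.00413, 0.0192 and 0.0119.

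Among the called members in EC, the largest falls were those of Slc17a7, the vesicular glutamate transporter of cortical neurons (log2 fold change -0.65 ± 0.15, edgeR adjusted p = 0.0279), the vesicle protein gene Sv2b (-0.58), Snap25, Stx1a (-0.54), Rbfox1 (-0.51) and Syp, which encodes synaptophysin (-0.48). Slc17a7 had 589, 808 and 1024 CPM at the lowest, median and highest of the stroke libraries, against 1035, 1051, 1122, 1515 and 1606 CPM in controls. The groups did not overlap, and the upper controls were numbers 7 and 9. Of the 31 members, 7 had every stroke library below every control, where 2% of all genes did. No member had every stroke library above every control, where 1.86% did. The 14 calls rested on those controls: 0 members passed without control 7 and 1 (Snap25) without control 9. Without stroke 8, the stroke library with the lowest median over members, 8 passed. Snap25 was at -0.48 without control 7, with an adjusted p of 0.0505, and Slc17a7 at -0.55 with 0.0962. Its call also ended without control 9, at -0.58 with an adjusted p of 0.0924, without stroke 8, at -0.61 with 0.0546, and without stroke 10, at -0.66 with 0.0508. With controls 7 and 9 both left out, an alternative added after seeing the data, no member passed and the median over members was -0.25. EC libraries numbered up to 6 differed in depth from those above 6. Within these classes no member passed, with medians of -0.19 up to 6 and -0.58 above 6, and 11 members passed with the class as a covariate. The losses were those of the whole table: no gene was called within either class or without controls 7 and 9. Lower calls over all genes, 560 with all libraries, were 23 without control 7, 39 without control 9 and 235 without stroke 8.

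In pericyte libraries the largest falls included both sides of the synapse. Grin1, the subunit that all NMDA receptors share, fell with a log2 fold change of -1.44 ± 0.33 (edgeR adjusted p = 0.00489), Gad2 by -1.39 ± 0.23, Syt4 by -1.36 ± 0.27, Sv2b by -1.33 ± 0.34 and Gria2 by -1.27 ± 0.36. Grin1 had 6.23, 10.8 and 30.7 CPM at the lowest, median and highest in pericyte stroke libraries, against 20.7, 37.3 and 49.7 CPM in controls. Its ranges met through stroke 3, the highest stroke library. Gad2 was the one member with no overlap, at 6.13, 16.4 and 23.5 CPM in pericyte stroke and 25.1, 43.8 and 53.1 CPM in control, where 1% of all genes did not overlap in this direction and 4.49% in the other. Of the 27 calls, 22 held whichever library was left out, and those of Cplx1, Gabrb2, Grin2a, Nrgn and Stx1a did not. Without stroke 3, control 5 and control 9 together, an alternative added after seeing the data, 29 members passed.

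In OPC libraries the members that fell were mostly vesicle and transmitter genes. Nrgn fell most, with a log2 fold change of -1.32 ± 0.29 (edgeR adjusted p = 0.0045), and its groups did not overlap, at 10.1, 21.3 and 36.1 CPM in stroke and 36.6, 59.1 and 86.8 CPM in control. Gad2 fell by 1.21 on the log2 scale, Slc17a7 by 1.21, Rbfox3 by 1.200 and Syt1, the calcium sensor of fast release, by 1.04. Vamp2 and Rab3a fell less but with the least spread: Rab3a had 83.0, 95.7 and 99.9 CPM in OPC stroke and 119, 144 and 153 CPM in OPC control (-0.59 ± 0.07, edgeR adjusted p = 4.55e-05). In all, 5 members did not overlap, where 3.89% of all genes did not in this direction and 7.19% in the other. Of the 16 calls in either direction, 12 held whichever library was left out, and those of Syt5, Syp, Slc17a7 and Syt1 did not. The call of Slc17a7 ended without stroke 5 (adjusted p = 0.0536) and without stroke 10 (0.0513). That of Syt1 ended without stroke 5 (0.0618), stroke 10 (0.0551) and control 12 (0.051), where its log2 fold change was -0.70. Relative to the control mean, control 12 was the highest and stroke 8 the lowest OPC library over the members. Without both, an alternative added after seeing the data, the median log2 fold change over members was -0.29 and 11 members were lower.

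In astrocyte libraries Sv2b fell most, with a log2 fold change of -1.37 ± 0.34 (edgeR adjusted p = 0.0178), followed by Camk2b, a CaMKII subunit (-1.23), Rbfox1 (-1.23), Gad2 (-1.19), the GABA-A receptor subunit gene Gabrb2 (-1.17) and Gad1 (-1.15). Gad2 had 18.4, 34.3 and 39.5 CPM in astrocyte stroke and 62.5, 71.1 and 79.3 CPM in astrocyte control, with a wide gap between the groups (adjusted p = 0.000332). Sv2b had 15.3, 36.7 and 75.3 CPM in stroke and 76.9, 97.0 and 122 CPM in control, so that stroke 11 came close to the lowest control. Of the 31 members, 17 had every stroke library below every control, where 3.18% of all genes did and 4.19% were separated the other way. Of the 24 calls, 18 held whichever library was left out. That of Gabrb2 ended without control 6, at -1.08 with an adjusted p of 0.0506.

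**Figure D3:**
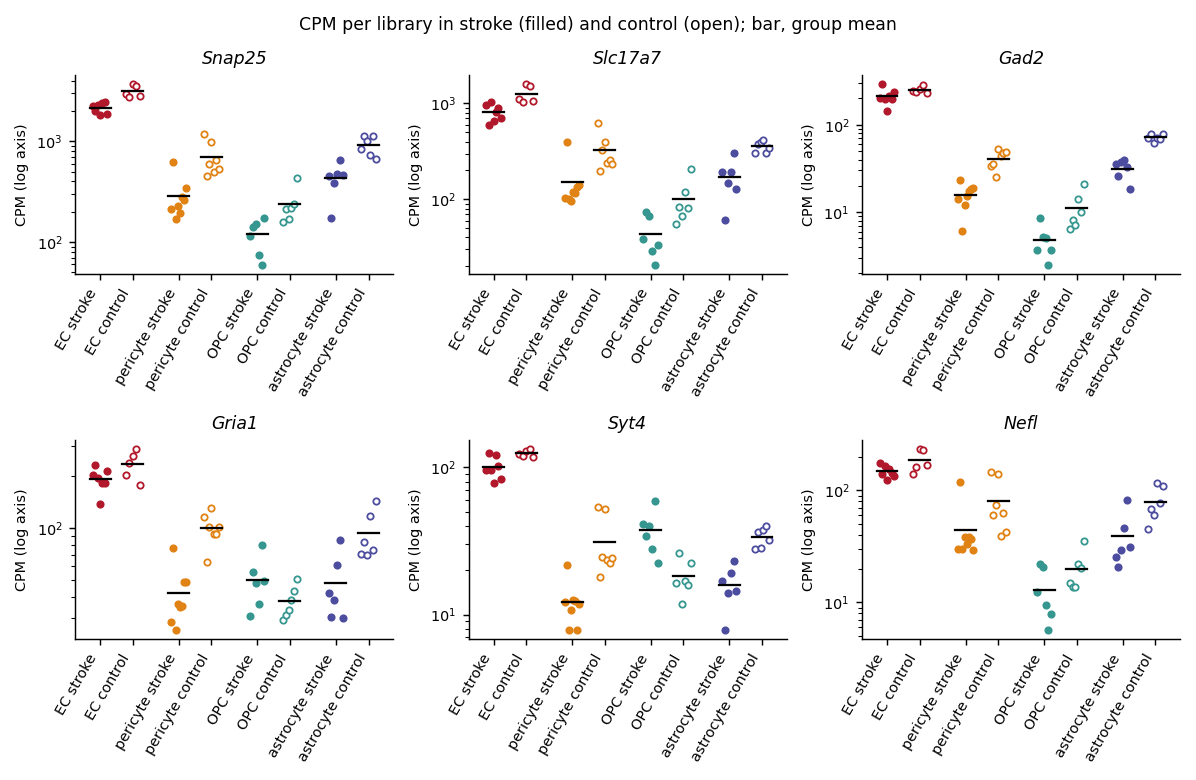
CPM of 6 members in each library on a log axis, stroke filled and control open, with bars at group means. Group means of Snap25, Slc17a7 and Gad2 lie lower in stroke in all 4 cell types. In EC the Gad2 ranges overlapped and Gad2 did not pass the test. Syt4 lies higher in OPC stroke, and the highest pericyte stroke library is stroke 3 in each panel.

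A test of the interaction of cell type and condition over the 51 EC, pericyte, OPC and astrocyte libraries called Syt4 (edgeR adjusted p = 1.04e-06), Gria1 (0.000183), Camk2b (0.0262), Syn2 (0.0361) and Grin1 (0.0376). That is 5 of 31 members, where 14.3% of 25257 genes were called, so that the members' share is near that of all genes. In each of the 5, OPC had the least negative or the one positive value, and EC log2 fold changes were -0.31 for Syt4, -0.28 for Gria1, -0.54 for Camk2b, -0.44 for Syn2 and -0.41 for Grin1. Syt4 (chr18:31437808-31447406, minus strand), a synaptotagmin that does not trigger fast release, had 22.3, 37.3 and 58.7 CPM in OPC stroke and 11.8, 16.7 and 26.3 CPM in OPC control (log2 fold change 1.04 ± 0.22, adjusted p = 0.00365). All 6 stroke libraries lay above the control median, and the ranges overlapped between stroke 10 and control 6. The fold change was 0.85 to 1.17 with any 1 library left out and was called each time. In pericytes Syt4 had 7.83, 12.1 and 21.6 CPM in stroke and 18.0, 24.1 and 53.5 CPM in control, and in astrocytes 7.82, 15.6 and 22.9 CPM in stroke and 27.8, 34.3 and 39.7 CPM in control (-1.09 ± 0.21). Syt4 shares 566 exon bases, 14.5% of its exons, with Gm26658 on the opposite strand, whose reads cannot be told from its own in an unstranded library.

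Gria1, an AMPA receptor subunit gene, had 31.1, 48.6 and 80.0 CPM in OPC stroke and 29.6, 36.0 and 50.5 CPM in OPC control, a log2 fold change of 0.41 ± 0.20 that did not pass (edgeR adjusted p = 0.165). It fell in pericytes, with 25.7, 35.7 and 76.8 CPM in stroke and 63.8, 101 and 131 CPM in control (-1.25 ± 0.22), and in astrocytes (-0.97 ± 0.27). The astrocyte call ended without any 1 of 7 libraries: controls 2, 6 and 10 and strokes 3, 4, 7 and 12, with values of -0.80 to -0.96. Camk2b did not pass in OPC, at 98.8 ± 22.3 CPM in stroke and 105 ± 29.5 CPM in control (n = 6 each, -0.08 ± 0.19). Its OPC value was 0.03 without stroke 8 and 0.05 without control 12. It fell by 1.21 in pericytes and 1.23 in astrocytes on the log2 scale. Syn2, a synapsin, was at -0.20 ± 0.11 in OPC, -1.18 ± 0.27 in pericytes and -0.62 ± 0.16 in astrocytes. Its astrocyte call ended without controls 2, 5 or 9 or strokes 4 or 7 (-0.55 to -0.62), and its EC call, at -0.44, ended without controls 7 or 9 or strokes 2, 4, 8, 12 or 14 (-0.35 to -0.46). Grin1 was at -0.26 ± 0.21 in OPC, and its interaction ended without EC control 3 (adjusted p = 0.0589), 5 (0.0562) or 11 (0.0581). Grin1 shares 13.5% of its exon bases with the antisense gene Grin1os. Gad2 was next, with an interaction adjusted p of 0.051. No neurofilament gene was called for interaction, at 0.465 for Nefm, 0.62 for Nefl and 0.858 for Nefh.

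The neurofilament genes lay lower in stroke in each table without passing the test, and single libraries shifted their values. Nefl (chr14:68083863-68089095, plus strand) and Nefm (chr14:68082590-68124846, minus strand), the light and medium subunits, share 1108 exon bases, 32.8% of those of Nefl, on opposite strands, so that their reads are partly the same. Nefl had 29.2, 35.1 and 118 CPM in pericyte stroke and 39.4, 62.7 and 147 CPM in pericyte control (log2 fold change -0.88 ± 0.36, edgeR adjusted p = 0.073). Stroke 3 was the 118 CPM, and controls 5 and 9 were the highest controls. Without stroke 3, Nefl was at -1.27 (adjusted p = 0.00255) and Nefm at -1.13 (0.00261), and both passed. Without stroke 3, control 5 and control 9 together, an alternative added after seeing the data, Nefl was at -0.73 (0.00634) and Nefm at -0.72 (0.0111), and both passed. In astrocytes Nefl had 20.8, 30.4 and 81.7 CPM in stroke and 45.4, 72.6 and 117 CPM in control (-1.02 ± 0.32, adjusted p = 0.0621). Stroke 11 held the highest stroke value, and without it Nefl was at -1.37 (0.00377), Nefm at -1.49 (0.0071) and Nefh, the heavy subunit, at -1.58 (0.0448), and all 3 passed. Without control 1, Nefl was at -1.11 and also passed (0.0364). With DESeq2 in place of edgeR, Nefl and Nefm passed with all libraries in pericytes (adjusted p = 0.0311 and 0.0357) and in astrocytes (0.0133 and 0.0290), and Nefh did not. Lower calls over all genes in pericytes, 2787 in the main fit, were 3572 without stroke 3 and 4020 with DESeq2. In astrocytes, 880 became 1095 without stroke 11, 727 without control 1 and 1237 with DESeq2. Other omissions went the other way. Their edgeR adjusted p reached 0.167 for Nefl and 0.186 for Nefm in pericytes, and 0.14 and 0.224 in astrocytes. In EC the Nefl values were -0.33 ± 0.13, with 124, 142 and 176 CPM in stroke and 140, 161, 167, 230 and 235 CPM in control. Nefh in EC was at -0.20 with all libraries, 0.25 within libraries numbered up to 6 and 0.20 without controls 7 and 9. In OPC Nefl had 5.64, 11.0 and 21.9 CPM in stroke and 13.6, 17.6 and 35.3 CPM in control (-0.62 ± 0.33), and the ranges overlapped.

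**Figure D4:**
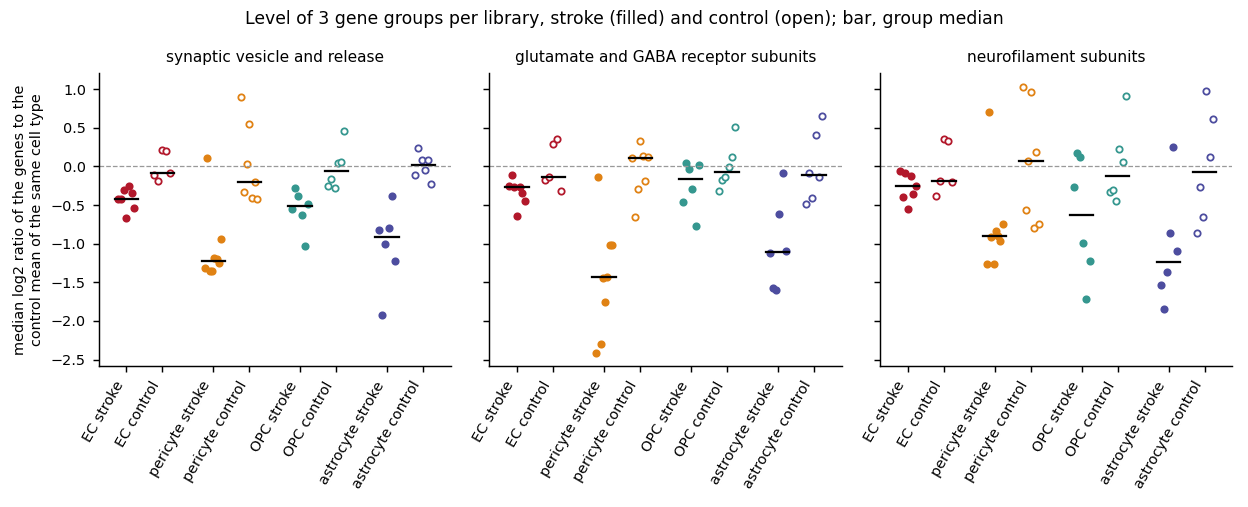
Median log2 ratio to the control mean of the same cell type, per library, for the 14 vesicle genes, the 6 receptor subunit genes and the 3 neurofilament genes; filled points are stroke, open points control, and bars are group medians. Astrocyte stroke libraries lie below all astrocyte controls for vesicle genes. Pericyte stroke 3, astrocyte stroke 11 and OPC strokes 2 and 3 lie above 0 for neurofilament genes.

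Neurofilament and vesicle genes did not move in step in every library. Astrocyte control 6 had a median log2 ratio to the control mean of 0.97 over the neurofilament genes and -0.05 over the vesicle genes, and astrocyte control 10 had 0.62 and -0.22. Astrocyte control 1 stood at -0.86 for neurofilament and -0.10 for vesicle genes. Astrocyte stroke 11 stood at 0.25 for neurofilament and -0.39 for vesicle genes. In pericytes, stroke 3 stood at 0.71 and 0.11, control 5 at 1.04 and 0.90, and control 9 at 0.97 and 0.56. The ratio of Nefl to Snap25 per length was 0.303 ± 0.0652 in pericyte stroke and 0.224 ± 0.0516 in pericyte control libraries, and 0.138 ± 0.0127 in EC stroke and 0.117 ± 0.0133 in EC control libraries. It was 0.224 ± 0.0776 in OPC stroke and 0.170 ± 0.0258 in OPC control libraries, and 0.182 ± 0.0578 in astrocyte stroke and 0.190 ± 0.106 in astrocyte control libraries. The ranges overlapped in each of the 4 tables.

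A list of 86 further genes (32 presynaptic, 28 postsynaptic, and 26 of cytoskeleton, channels and identity), chosen with earlier results of these data known, had 25 lower in EC, 69 in pericytes, 17 in OPC and 39 in astrocytes, beside 2.67%, 12.8%, 8.77% and 4.68% of all genes. None of the 86 was higher in EC or astrocytes, beside 3.57% and 5.63% of all genes. The EC calls come from the fit whose lower calls over all genes were 23 without control 7. Of all genes, 15.9% were higher in pericytes and 11.7% in OPC. In pericytes 2 were higher: Thy1, a surface glycoprotein also found on fibroblasts and T cells (66.5 ± 29.3 CPM in stroke and 20.7 ± 12.4 CPM in control, log2 fold change 1.68), and the vesicle gene Syngr1 (1.18). In OPC 5 were higher: Gap43, a growth cone protein that OPC also make (246 ± 40.8 CPM in stroke and 109.6 ± 12.9 CPM in control, 1.17 ± 0.11), Prph, a filament gene of peripheral neurons (1.79 ± 1.05 CPM in stroke and 0.345 ± 0.135 CPM in control, 2.37), Sv2c (0.90), Grm5 (0.40) and Dlgap1 (0.29). Of these, Gap43, Prph and Sv2c did not overlap between the groups, where 7.19% of all genes did not in this direction. Sv2c was at -1.91 in pericytes. Ppp3ca, a calcineurin subunit gene, fell in pericytes (-0.84), OPC (-0.28) and astrocytes (-0.75).

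All 9 genes of striatal projection neurons fell in astrocytes, 7 in pericytes, 6 in OPC and none in EC, where 4.68%, 12.8%, 8.77% and 2.67% of all genes fell, with median log2 fold changes of -1.61, -1.96, -1.01 and -0.60. In astrocytes all 9 had no overlap between groups, where 3.18% of all genes had none in this direction. Penk, which encodes enkephalin, had 76.3 ± 8.61 CPM in astrocyte stroke and 276 ± 70.5 CPM in astrocyte control (n = 6 each, -1.85 ± 0.16, edgeR adjusted p = 9.8e-06). In pericytes the dopamine receptor gene Drd1 was at -2.05 and Tac1 at -2.18. In OPC Penk was at -1.82 and Tac1 at -1.01. Of the 8 cortical excitatory genes, 2 fell in EC, 6 in pericytes, 4 in OPC and 3 in astrocytes. The EC calls come from the fit whose 560 lower calls over all genes became 23 without control 7 and 39 without control 9. Bcl11b, which striatal neurons also express, was at -1.19 in pericytes and -1.36 in astrocytes, and Tbr1 fell in EC (-0.56), pericytes (-1.06), OPC (-1.17) and astrocytes (-1.11). Of the 8 interneuron genes, none fell in EC, 5 in pericytes, 4 in OPC and 3 in astrocytes, with Reln at -1.70 in pericytes, Calb2 at -0.87 in OPC and Lhx6 at -1.09 in astrocytes. Whether the lists or the tables differ from each other was not tested.

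Markers of other cells moved beside these genes. All 8 microglia markers were higher in stroke in pericytes, OPC and astrocytes, and 5 of 8 in EC. Of all genes, 15.9% were higher in pericytes, 11.7% in OPC, 5.63% in astrocytes and 3.57% in EC. The shares of all genes lower were 12.8%, 8.77%, 4.68% and 2.67%, in the same order. Higher EC calls over all genes, 749 with all libraries, were 115 without control 7 and 156 without control 9. They summed to 218 to 423 CPM in EC stroke and 121 to 193 CPM in EC control, to 2716 to 5938 CPM in pericyte stroke and 324 to 2318 CPM in pericyte control, to 571 to 978 CPM in OPC stroke and 75.8 to 156 CPM in OPC control, and to 1616 to 2829 CPM in astrocyte stroke and 549 to 755 CPM in astrocyte control. Mature oligodendrocyte markers were lower in 6 of 8 in pericytes, at 7685 to 34686 CPM in stroke and 15534 to 54206 CPM in control, and in 8 of 8 in OPC, at 56897 to 77599 CPM in stroke and 97754 to 111790 CPM in control. None of the 8 was lower in EC or astrocytes, where they summed to 5607 ± 1165 CPM in astrocyte stroke and 5459 ± 2051 CPM in astrocyte control. In OPC 6 of 8 astrocyte markers were higher, at 1366 to 3992 CPM in stroke and 534 to 811 CPM in control, with a median log2 fold change of 1.35. Of the 8 OPC markers, 3 were lower in pericytes and 1 in OPC. Of the 8 endothelial markers, 2 were higher in EC, 2 in OPC and 2 in pericytes, where 2 others were lower. Only 7 of these 8 passed the filter in OPC. No marker of these lists was at 0 in any of these groups. Their part in the results was not tested.

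In microglia the members were sparse and held by single libraries. Only 13 of the 31 members passed the filter on low counts, none of them a neurofilament or transmitter gene, so these 13 are not all members. None was called in P2 stroke against P2 control, where 0.00756% of 13225 genes were lower and 0% higher, or in P4 stroke against P2 stroke, with the same shares. edgeR gave 1342 genes an unadjusted p under 0.05 in the first comparison and 1517 in the second. DESeq2 called 96 genes higher and 62 lower in the first and 20 and 125 in the second. The members together summed to 267 CPM in P4 stroke, 502 CPM in P2 stroke and 605 CPM in P2 control libraries on average. For 15 members over 50% of all counts came from 1 library, and 7 had a median of at least 1 CPM over the 26 libraries. Vamp2, Sv2a and Grin2b had counts in every library, and Vamp2, whose protein also serves secretion outside neurons, was the highest, at a median of 94.5 CPM. Gad1 had 98.3% of its counts in P2 control 14, at 249.6 CPM, and Gria1 had 83.7% in P2 stroke 10, at 439 CPM. Grin2b had 73.7% in P2 stroke 9, at 1031 CPM, and a median of 0.827 CPM. Syt4 was at 0 in 20 of 26 libraries and Nefh in 21, and each such 0 allows up to 3 counts.

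**Figure D5:**
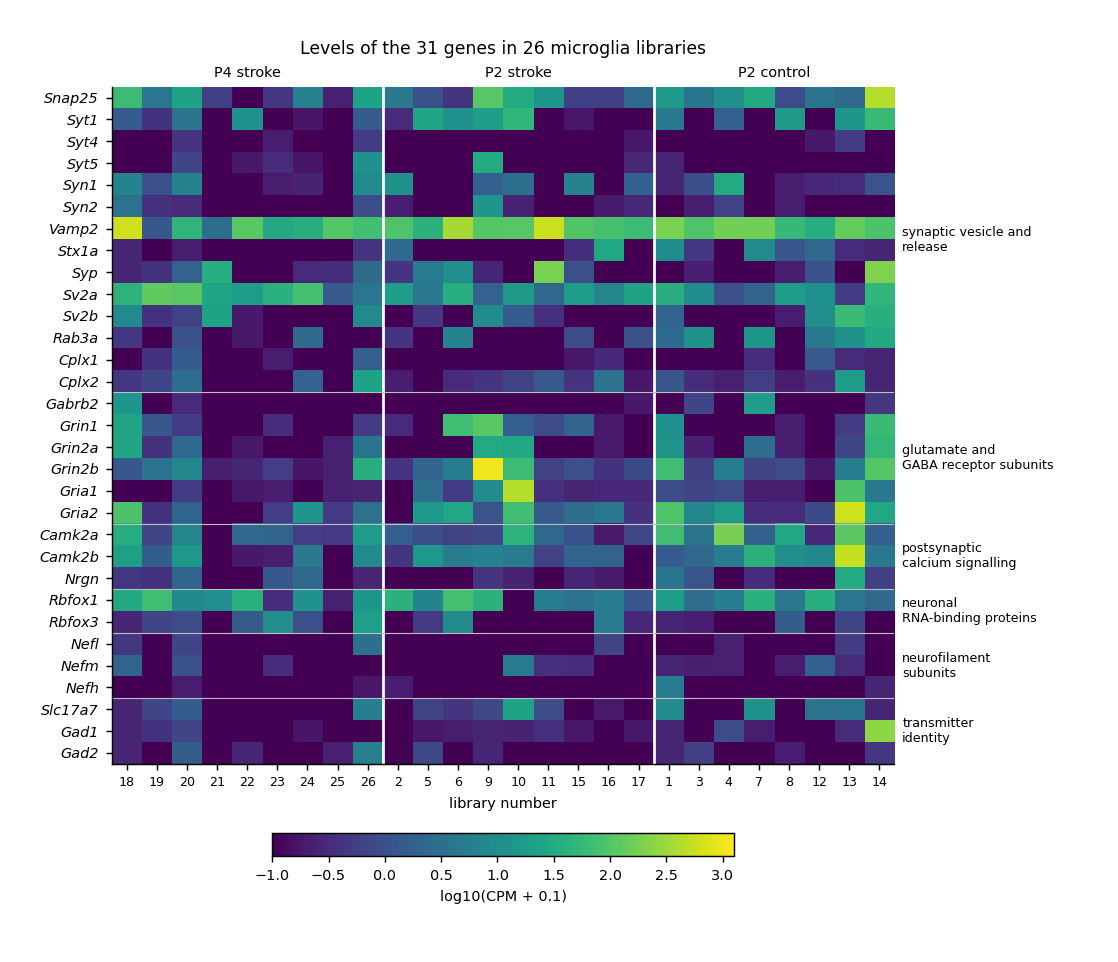
Level of each member in each of 26 microglia libraries, as log10 of CPM with 0.1 added; libraries are grouped as P4 stroke, P2 stroke and P2 control. Vamp2 and Sv2a are present throughout, and isolated bright cells such as Gad1 in P2 control 14 and Grin2b in P2 stroke 9 mark members held by 1 library.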

How the data were processed

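RNA of 77 mouse cerebral white matter libraries was prepared with SMART-Seq v4, per the labels' protocols. The authors deposited 5 tables of raw read counts per Ensembl gene, 1 per cell type, made with bcl2fastq 2.20, STAR and HTSeq on GRCm38, per the submitters' processing notes. The column names of 4 tables begin with the name of another aligner. The counts hold no molecular identifiers and no strand information is given, so reads of overlapping genes cannot be told apart, and limits on a count of 0 cover counting error only.

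Counts were tested as deposited with edgeR 4.0.16 in R 4.3.3 (quasi-likelihood test, TMM scaling, filterByExpr, Benjamini-Hochberg adjustment over all genes of a table, threshold 0.05), fitted per table on its own groups, with the 3 microglia groups in 1 fit. A cell type by condition interaction was fitted over 51 libraries. Among single libraries, only EC controls were left out of that fit. The alternatives were RLE size factors, library totals alone, no filter, DESeq2 1.42.0, limma-voom (limma 3.58.1), each library left out, a library number class in EC, and pericyte controls 11 and 15 summed. Levels are CPM with TMM-scaled totals. Depth was 43367636 counts or more in 51 libraries and 5530125 to 11770194 in microglia.

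The members and gene lists were chosen with earlier results of these data known. Genes were named for size of change among called members (up to 6 per direction), for moving against the majority, or for the smallest interaction p, and in other lists up to 2 per direction by p.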

Additional observations from a re-analysis of the deposited data

Results flagged for a closer look

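Of 77 sums of CPM over the members or their role groups, each examined within a group of libraries, 24 had a library far from the others of its group. These sums overlap, since all members include the role groups. Many of the 24 were sums of microglia libraries, where members were sparse and held by single libraries. How many such sums chance alone would give was not worked out. Pericyte stroke 3 stood apart for all members (4759 CPM), vesicle genes (2774), CaMKII and neurogranin genes (589), Rbfox genes (201), neurofilament genes (214) and transmitter genes (454), and astrocyte stroke 11 for neurofilament genes (158). OPC control 12 stood apart for all members (3073) and vesicle genes (1938).

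In microglia, P4 stroke 18 stood apart for all members (1018 CPM), vesicle (768), receptor (160) and CaMKII and neurogranin genes (56.4), and P4 stroke 26 for transmitter genes (11.5). P2 stroke 9 stood apart for receptor genes (1188), P2 stroke 11 for vesicle genes (794), and P2 stroke 10 for CaMKII and neurogranin (49.0), neurofilament (5.02) and transmitter genes (22.9). P2 control 13 stood apart for receptor (732) and CaMKII and neurogranin genes (691), P2 control 14 for vesicle (909.7) and transmitter genes (250.1), and P2 control 1 for neurofilament genes (5.10).

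The stroke response differed between the 4 cell types by edgeR's interaction test for Syt4 (adjusted p = 1.04e-06), Gria1 (0.000183), Camk2b (0.0262), Syn2 (0.0361) and Grin1 (0.0376). This test called 14.3% of all 25257 genes, and the members' share is near that. The call of Grin1 ended without EC control 3 (adjusted p = 0.0589), 5 (0.0562) or 11 (0.0581). With no filter, Grin1 (0.0572) and Syn2 (0.0587) were lost. Only EC controls were left out in turn, so dependence on single OPC, pericyte or astrocyte libraries was not tested.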

How the results depend on the processing

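The number of members lower in EC was 0 within libraries numbered up to 6, 0 above 6 and 0 without controls 7 and 9, where no gene of the table was called, and 0 to 15 with 1 library left out. With 1 library left out, pericytes had 22 to 30, OPC 11 to 16, astrocytes 19 to 29 and microglia 0, and the interaction called 4 to 5 members with 1 EC control left out. Over all genes, lower calls with 1 library left out were 23 to 619 in EC and 2100 to 3572 in pericytes. They were 1188 to 1679 in OPC and 500 to 1095 in astrocytes. The interaction called 3302 to 3547 genes with 1 EC control left out. The interaction called 9 with limma-voom, 7 with library totals alone, 6 with RLE and 4 with no filter, where Syn2 (adjusted p = 0.0587) and Grin1 (0.0572) were lost. Calls over all genes shifted too. Of 25257 genes, 3619 were called in the main fit, 4876 with limma-voom, 4597 with library totals and 3855 with RLE. With no filter 3078 of 45401 were called. Gad2 gained the interaction call with RLE (0.0426), library totals (0.0266), no filter (0.046) and limma-voom (0.00755). With no filter, 1 member, Gria1, was lower in P4 stroke against P2 stroke microglia, where 42 of 29557 genes were. Of the Gria1 counts in microglia, 83.7% came from 1 library, P2 stroke 10. The other tools, scalings and no filter gave 10 to 18 members lower for EC, 25 to 29 for pericytes, 10 to 17 for OPC and 22 to 27 for astrocytes. Lower calls over all genes in these settings were 254 to 1237 in EC and 2149 to 4198 in pericytes. They were 804 to 2003 in OPC and 679 to 1237 in astrocytes. The main fits had 560, 2787, 1593 and 880, in the same order. With pericyte controls 11 and 15 summed to 1 library, 26 members were lower, and 2139 of 21966 genes. The median log2 ratios of these 2 libraries to the control mean were -0.33 and -0.38 over the members. Whether they share a source is not stated in the labels and was not tested. Library totals alone moved the median over all genes to 0.10 in EC, -0.28 in pericytes and 0.11 in OPC. Signs reversed in EC up to number 6 for Grin2b (0.042), Camk2a (0.064), Nefl (0.089) and Nefh (0.25), in EC without controls 7 and 9 for Nefh (0.20), and in OPC for Camk2b with library totals (0.039) and without stroke 8 and control 12 (0.18), its range with 1 library left out being -0.18 to 0.050. The cause was not tested. No paired analysis was possible because stroke and control libraries of a table share no library number, and nothing in the labels ties equal numbers across tables to 1 animal.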
